A study of Homo sapiens with 8 samples.

Results

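The genes described here are 3 receptors and 7 ligands of the epidermal growth factor (EGF) family, 10 of the 61533 genes in the count tables. They were chosen by name: the receptors EGFR, ERBB2 and ERBB3 and the ligands AREG, EREG, HBEGF, TGFA, BTC, EPGN and NRG1. The choice was made with earlier results of these data known. Each symbol matched 1 gene identifier, and all 10 passed the filter on low counts that left 18738 genes. RNA was sequenced in A431, an epidermoid carcinoma line of skin, and CAL27, a squamous cell carcinoma line of the tongue. Each line received an inhibitor labelled NEDD8i or DMSO, the solvent control, for 16 h, which gave A431 NEDD8i, A431 DMSO, CAL27 NEDD8i and CAL27 DMSO with 2 libraries each. The labels give neither the identity nor the dose of the inhibitor, and they name no genetic change in either line. Whether paired libraries were grown as separate cultures is not stated, and the p-values therefore reflect the spread among these libraries alone, which may be technical.

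NEDD8 is a ubiquitin-like protein that is attached to cullins and switches on cullin-RING ubiquitin ligases, and a NEDD8 inhibitor is used to shut these ligases off. The ERBB receptors are tyrosine kinases of the cell surface. Ligand binding makes them pair with themselves or each other and start the RAS, ERK and phosphatidylinositol 3-kinase cascades. The ligands are made as membrane-anchored precursors, and ADAM metalloproteases release them. In squamous epithelium, where EGFR is the main family member, they drive keratinocyte growth and wound closure, often on the cell that made them. A431 is known for very high EGFR.

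The 8 libraries held 49037868 to 62509817 counts. Levels are in CPM, counts relative to the library size after scaling by TMM factors, and 3 counts in a library correspond to 0.0454 to 0.0656 CPM. Libraries of a group correlated across genes with r = 0.981 to 0.986 on the log2 CPM scale. The first principal component (62.8% of the variance) separated the lines and the second (19.6%) the treatments. The mitochondrial share of counts was lower under NEDD8i, with 1.96% and 2.27% against 2.69% and 3.15% in A431 DMSO libraries, and 1.45% and 1.02% against 1.77% and 1.56% in CAL27 DMSO libraries. All 9 squamous epithelial markers, KRT5 and TP63 among them, had counts in every group. Their summed level was 13503 to 14059 CPM in A431 NEDD8i libraries against 9718 to 9858 in A431 DMSO libraries. In CAL27 it was 21047 to 21870 CPM under NEDD8i against 14733 to 14773 under DMSO. The members did not move together: 7 were called higher in each line, SFN, KRT6A, KRT17 and KRT14 among them, while KRT5 was called lower in both and TP63 in CAL27. Of all genes tested 22.5% were called higher and 21.1% lower in A431, and 23.2% and 26.4% in CAL27. KRT5 averaged 3540 CPM in A431 NEDD8i against 4757 in A431 DMSO, and 6434 in CAL27 NEDD8i against 7743 in CAL27 DMSO. TP63 averaged 265 CPM in A431 NEDD8i against 284 in A431 DMSO (not called), and 116 in CAL27 NEDD8i against 526 in CAL27 DMSO. Of 6 immune markers PTPRC and CD68 were at 0 in all libraries, and the summed level was 0.875 to 1.78 CPM in A431 NEDD8i against 6.38 to 6.78 in A431 DMSO, and 1.74 to 1.77 in CAL27 NEDD8i against 16.3 to 17.8 in CAL27 DMSO, nearly all of it CD14. Of 6 fibroblast markers, COL1A2 was at 0 in both A431 groups and COL3A1 in both CAL27 groups. Their sums were 17.6 to 18.4 CPM in A431 NEDD8i against 35.4 to 39 in A431 DMSO, and 6.49 to 10.8 in CAL27 NEDD8i against 20.8 to 24.1 in CAL27 DMSO. Of 4 endothelial markers KDR was at 0 throughout, with sums of 5.23 to 5.56 CPM in A431 NEDD8i against 19.6 to 21.9 in A431 DMSO, and 10.3 to 10.7 in CAL27 NEDD8i against 5.95 to 6.63 in CAL27 DMSO. Of 4 melanocyte markers TYR and DCT were at 0 throughout, and the sums stayed between 0.76 and 3.09 CPM. The part of these shifts in the results was not tested.

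Under NEDD8i, EGFR and ERBB2 transcripts fell in both lines and those of HBEGF, AREG, EREG and TGFA rose in both. NRG1, BTC and ERBB3 rose in A431 and fell in CAL27, and EPGN passed the test in A431 alone. Of the 3 with opposite directions, only NRG1 kept both calls under every alternative processing tried. The ERBB3 calls in both lines and the BTC call in A431 were lost under some. Log2 differences are NEDD8i minus DMSO with an approximate standard error, from edgeR's quasi-likelihood test on all 8 libraries, and a gene was called at a Benjamini-Hochberg adjusted p under 0.05 over all genes tested. Of the 10 genes, 8 were called higher and 2 lower in A431, where 43.6% of all genes tested were called, 22.5% higher and 21.1% lower. Of all A431 calls 51.7% were higher with TMM factors, and 41.6% with library size alone. In CAL27, 4 of the 10 were called higher and 5 lower, where 49.6% of all genes were called, 23.2% higher and 26.4% lower. The median log2 difference of the 10 genes was 1.39 in A431 and 0.33 in CAL27, beside medians of -0.01 and -0.04 over all genes tested. Across both lines 4 of the 10 were called higher in each, 2 lower in each and 3 in opposite directions, where the shares of all genes tested were 13.3%, 12.8% and 4.99%. Each library pools RNA of many cells, so fewer cells with a transcript and less of it per cell cannot be told apart. Counts are also shares of the RNA read, so a change in total RNA would not be seen.

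**Figure D1:**
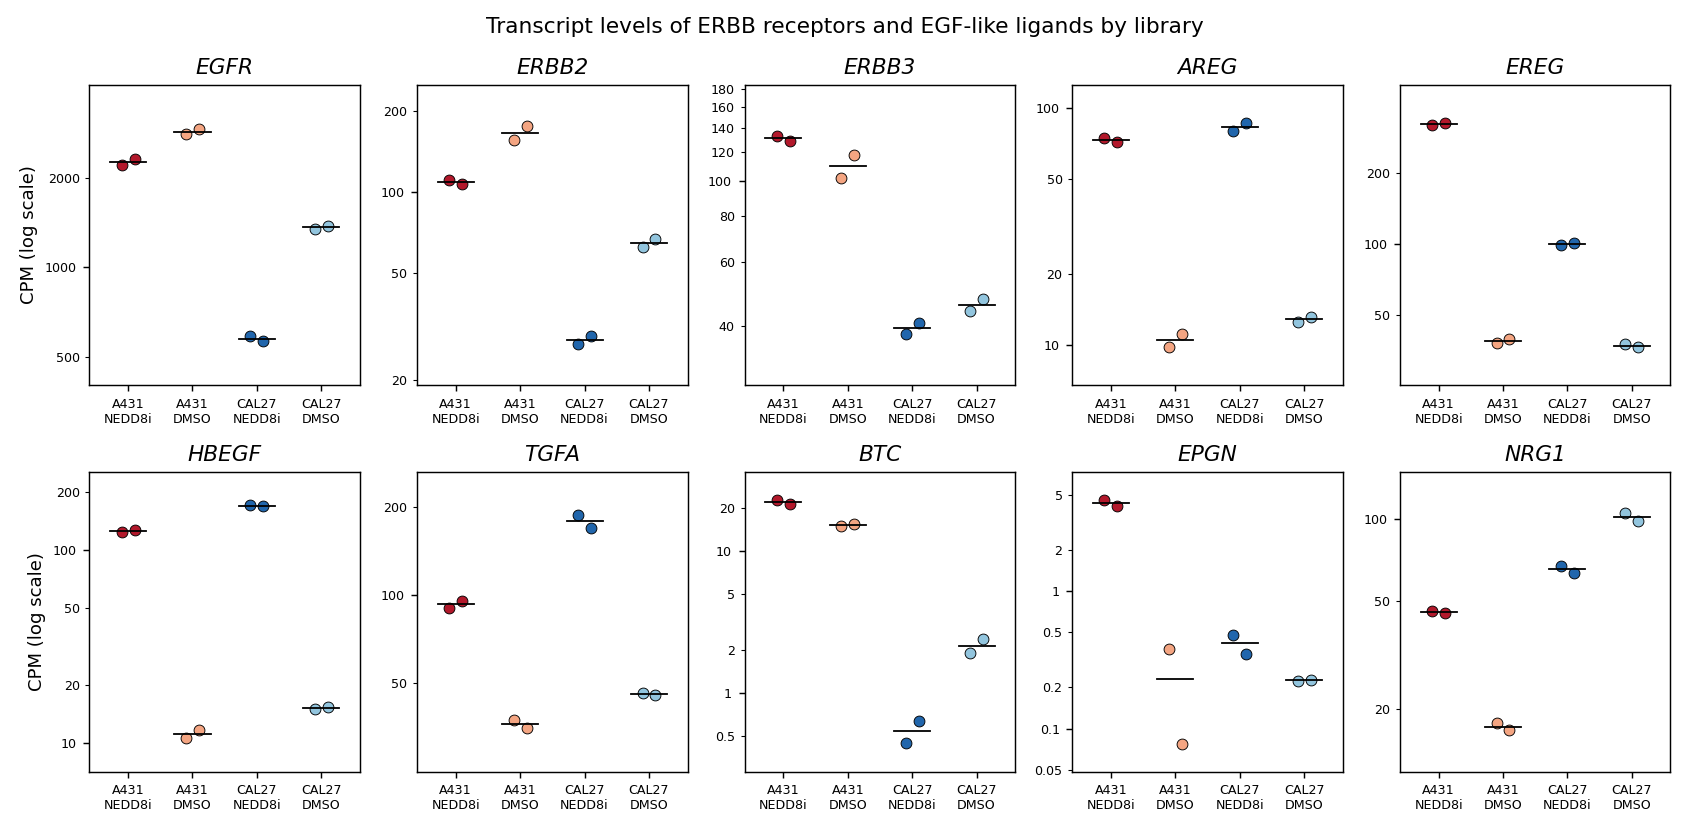
Level of each receptor and ligand gene in every library, in CPM on a log axis. Points are libraries and lines are means of 2 libraries, with NEDD8i left of DMSO in each line. HBEGF stood at 123 to 170 CPM in the 4 NEDD8i libraries and at 10.6 to 15.3 CPM in the 4 DMSO libraries.

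Among the receptors, EGFR, which binds EGF, TGFA and AREG, was lower under NEDD8i in both lines and more so in CAL27. EGFR (ENSG00000146648.20, chromosome 7, 55019017 to 55211628 on GRCh38, plus strand) had 2212 and 2311 CPM in A431 NEDD8i libraries, against 2807 and 2914 CPM in A431 DMSO libraries. It had 586 and 567.4 CPM in CAL27 NEDD8i libraries, against 1351 and 1376 CPM in CAL27 DMSO libraries. The groups did not overlap in either line. With 2 libraries a group, separation alone says little, here and for the genes below. EREG was also separate between A431 DMSO and CAL27 DMSO, where its difference was not called (edgeR adjusted p = 0.347). The log2 difference was -0.34 ± 0.04 in A431, a fall of 1.27-fold (edgeR adjusted p = 5.45e-07), and -1.24 ± 0.04 in CAL27, a fall of 2.36-fold (edgeR adjusted p = 2.06e-14). The order of levels was A431 DMSO, A431 NEDD8i, CAL27 DMSO and CAL27 NEDD8i from high to low, with no overlap between neighbours. EGFR-AS1, on the other strand, shares 1.64% of the exonic bases and had 185 counts over all libraries.

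ERBB2, the receptor with no ligand of its own that serves as the preferred partner of the others, followed the same order of groups. It had 111 and 107 CPM in A431 NEDD8i libraries, against 157 and 176 CPM in A431 DMSO libraries. It had 27.3 and 29.3 CPM in CAL27 NEDD8i libraries, against 62.6 and 67.2 CPM in CAL27 DMSO libraries. The groups were separate in both lines, with falls of 1.52-fold in A431 (log2 -0.60 ± 0.07, edgeR adjusted p = 7.42e-07) and 2.29-fold in CAL27 (log2 -1.20 ± 0.07, edgeR adjusted p = 1.76e-10). The gene (ENSG00000141736.14) lies on the plus strand of chromosome 17, 39687914 to 39728662. Its last 153 exonic bases, which hold the 3' end that this library type reads, are shared with MIEN1 on the other strand. Reads over those bases were left out of the counts, so the ERBB2 level is understated to an unknown degree.

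ERBB3, whose kinase is weak and which signals through its partners, changed little. It had 133 and 129 CPM in A431 NEDD8i libraries, against 102 and 118 CPM in A431 DMSO libraries. It had 38 and 40.7 CPM in CAL27 NEDD8i libraries, against 43.8 and 47.3 CPM in CAL27 DMSO libraries. The log2 differences were 0.25 ± 0.07 in A431 (edgeR adjusted p = 0.00814) and -0.21 ± 0.07 in CAL27 (edgeR adjusted p = 0.0259). Both were called, but neither call held throughout. The A431 call was lost without A431 DMSO replicate 1 (log2 0.16, adjusted p = 0.121). The CAL27 call was lost without CAL27 DMSO replicate 2 (log2 -0.14, adjusted p = 0.277) and without CAL27 NEDD8i replicate 1 (log2 -0.17, adjusted p = 0.135). ERBB3 (ENSG00000065361.17) lies on chromosome 12, 56079874 to 56103505, plus strand.

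Of the 7 ligands, 4 rose in both lines, as did 13.3% of all genes tested. HBEGF, a heparin-binding ligand of EGFR that also serves as the diphtheria toxin receptor, rose by nearly the same fold in each line. It had 123 and 127 CPM in A431 NEDD8i libraries, against 10.6 and 11.6 CPM in A431 DMSO libraries. It had 170.3 and 168 CPM in CAL27 NEDD8i libraries, against 15 and 15.3 CPM in CAL27 DMSO libraries. The rise was 11.3-fold in A431 (log2 3.49 ± 0.07, edgeR adjusted p = 2.28e-16) and 11.2-fold in CAL27 (log2 3.48 ± 0.07, edgeR adjusted p = 1.2e-16). Of all genes tested, 4.62% in A431 and 4.38% in CAL27 had a larger absolute log2 difference. HBEGF (ENSG00000113070.8) lies on chromosome 5, 140332843 to 140346603, minus strand.

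AREG, which encodes amphiregulin, a keratinocyte growth factor that binds EGFR, had 74.7 and 71.9 CPM in A431 NEDD8i libraries, against 9.82 and 11.1 CPM in A431 DMSO libraries. It had 80.3 and 86.4 CPM in CAL27 NEDD8i libraries, against 12.5 and 13.2 CPM in CAL27 DMSO libraries. The NEDD8i libraries of both lines thus stood far above all DMSO libraries. The rise was 7.02-fold in A431 (log2 2.81 ± 0.09) and 6.48-fold in CAL27 (log2 2.70 ± 0.08), with edgeR adjusted p = 5.51e-14 and 4.1e-14.

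EREG, which encodes epiregulin, a ligand of EGFR and ERBB4, had like levels in the DMSO libraries of both lines and higher ones in A431 under NEDD8i. It had 318 and 325 CPM in A431 NEDD8i libraries, against 37.9 and 39.4 CPM in A431 DMSO libraries. It had 98.6 and 101 CPM in CAL27 NEDD8i libraries, against 37.5 and 36.6 CPM in CAL27 DMSO libraries. The rise was 8.32-fold in A431 (log2 3.06 ± 0.05, edgeR adjusted p = 5.82e-17) and 2.69-fold in CAL27 (log2 1.43 ± 0.05, edgeR adjusted p = 4.05e-13).

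TGFA, which encodes transforming growth factor alpha, the autocrine EGFR ligand of many carcinomas, rose more in CAL27. It had 90.6 and 95.5 CPM in A431 NEDD8i libraries, against 37.1 and 34.9 CPM in A431 DMSO libraries. It had 188 and 170.5 CPM in CAL27 NEDD8i libraries, against 46.1 and 45.2 CPM in CAL27 DMSO libraries. The rise was 2.58-fold in A431 (log2 1.37 ± 0.07, edgeR adjusted p = 2.07e-11) and 3.92-fold in CAL27 (log2 1.97 ± 0.06, edgeR adjusted p = 8.61e-14). TGFA (ENSG00000163235.16) lies on chromosome 2, 70447284 to 70553826, minus strand.

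The other 3 ligands changed differently in the lines. NRG1, which encodes neuregulin 1, a ligand of ERBB3 and ERBB4 (ENSG00000157168.20, chromosome 8, 31639222 to 32774046), had 45.8 and 45.1 CPM in A431 NEDD8i libraries, against 17.7 and 16.7 CPM in A431 DMSO libraries. It had 67.5 and 63.7 CPM in CAL27 NEDD8i libraries, against 105 and 99.1 CPM in CAL27 DMSO libraries. Groups were separate in both lines, and the direction was opposite. NRG1 rose 2.64-fold in A431 (log2 1.40 ± 0.07, edgeR adjusted p = 5.99e-11) and fell 1.56-fold in CAL27 (log2 -0.64 ± 0.07, edgeR adjusted p = 2.82e-07), which left A431 NEDD8i still below both CAL27 groups.

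BTC, which encodes betacellulin, a ligand of EGFR and ERBB4, had 22.6 and 21.2 CPM in A431 NEDD8i libraries, against 14.8 and 15.5 CPM in A431 DMSO libraries. It had 0.446 and 0.635 CPM in CAL27 NEDD8i libraries, from 24 and 38 counts, against 1.93 and 2.39 CPM in CAL27 DMSO libraries, from 104 and 158 counts. BTC rose by 0.53 ± 0.14 on the log2 scale in A431 (edgeR adjusted p = 0.00633) and fell 3.97-fold in CAL27 (log2 -1.99 ± 0.22, edgeR adjusted p = 8.18e-07). The A431 call was lost without A431 NEDD8i replicate 1 (log2 0.49, adjusted p = 0.0599).

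EPGN, which encodes epigen, an EGFR ligand of low affinity, had few counts in 3 of the 4 groups. It had 211 and 226 counts (4.62 and 4.12 CPM) in A431 NEDD8i libraries, against 22 and 4 counts (0.382 and 0.0776 CPM) in A431 DMSO libraries. It had 26 and 21 counts (0.483 and 0.351 CPM) in CAL27 NEDD8i libraries, against 12 and 15 counts (0.222 and 0.227 CPM) in CAL27 DMSO libraries. A431 NEDD8i stood alone above the other groups, while the range of A431 DMSO overlapped those of both CAL27 groups. The A431 log2 difference of 4.21 ± 0.56 (edgeR adjusted p = 7.35e-06) became 5.78 without A431 DMSO replicate 1 and 3.50 without A431 DMSO replicate 2. In CAL27 the log2 difference was 0.88 (95% interval -0.33 to 2.09), which was not called (edgeR adjusted p = 0.227).

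**Figure D2:**
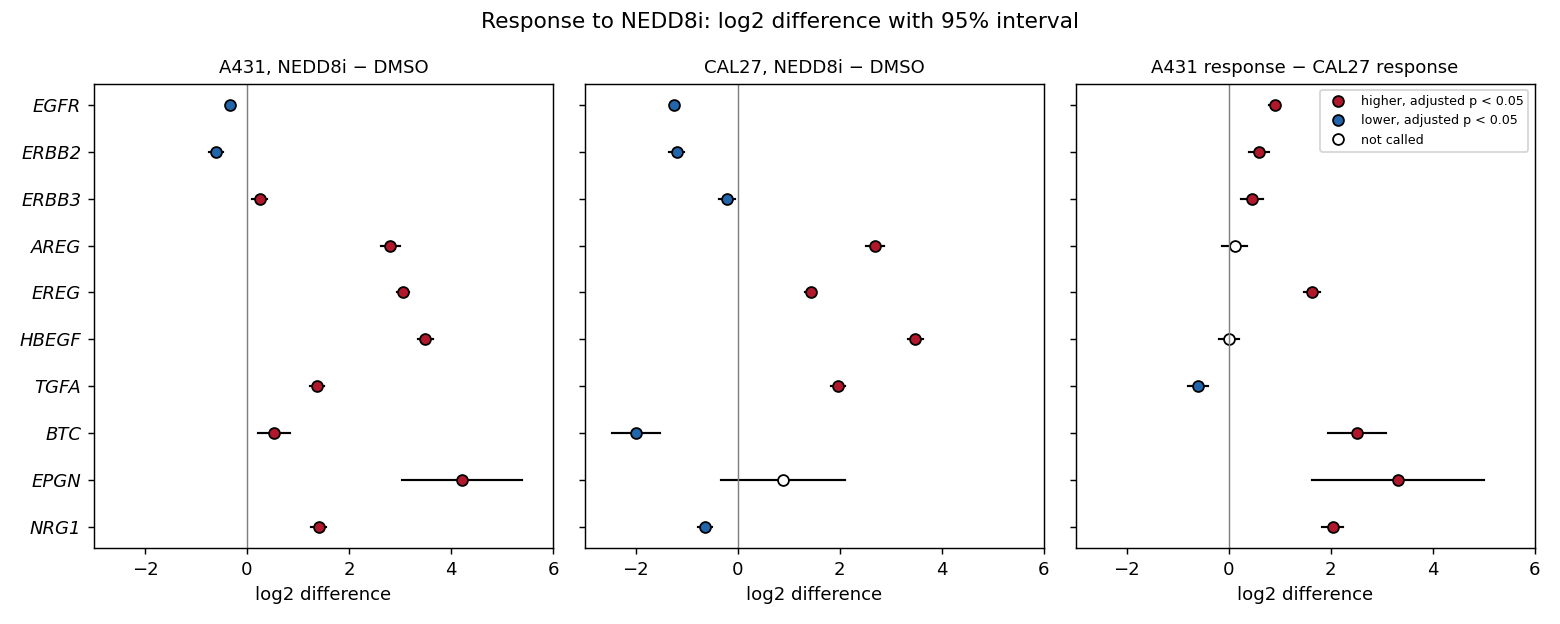
Log2 difference of each gene with its 95% interval, in 3 panels: A431 NEDD8i minus DMSO, CAL27 NEDD8i minus DMSO, and the A431 response minus the CAL27 response. Filled points were called at adjusted p under 0.05, red for higher and blue for lower, and open points were not. HBEGF and AREG lie near 0 in the third panel, with intervals of -0.18 to 0.21 and -0.13 to 0.36.

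The responses of the lines were compared directly as the A431 response minus the CAL27 response, and 8 of the 10 genes differed. The difference was called for 34.0% of all genes tested, 19.8% higher and 14.2% lower, and for the 10 genes it was higher in 7 and lower in 1. All 3 receptors were among the 7, with differences of 0.90 ± 0.05 for EGFR, 0.59 ± 0.10 for ERBB2 and 0.46 ± 0.10 for ERBB3 (edgeR adjusted p = 5.39e-10, 0.0001 and 0.00191 in that order). The ligands among them were EPGN at 3.33 ± 0.80, BTC at 2.52 ± 0.27, NRG1 at 2.04 ± 0.10 and EREG at 1.63 ± 0.07 (edgeR adjusted p = 0.00334, 1.12e-06, 7.79e-11 and 3.57e-11). TGFA stood at -0.60 ± 0.09 (edgeR adjusted p = 4.83e-05). For AREG the difference was 0.12 ± 0.12 (edgeR adjusted p = 0.508, 95% interval -0.13 to 0.36). For HBEGF it was 0.01 ± 0.09 (edgeR adjusted p = 0.98, 95% interval -0.18 to 0.21), and its sign turned under other scalings. EPGN was 4.88 without A431 DMSO replicate 1 and 2.61 without A431 DMSO replicate 2.

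**Figure D3:**
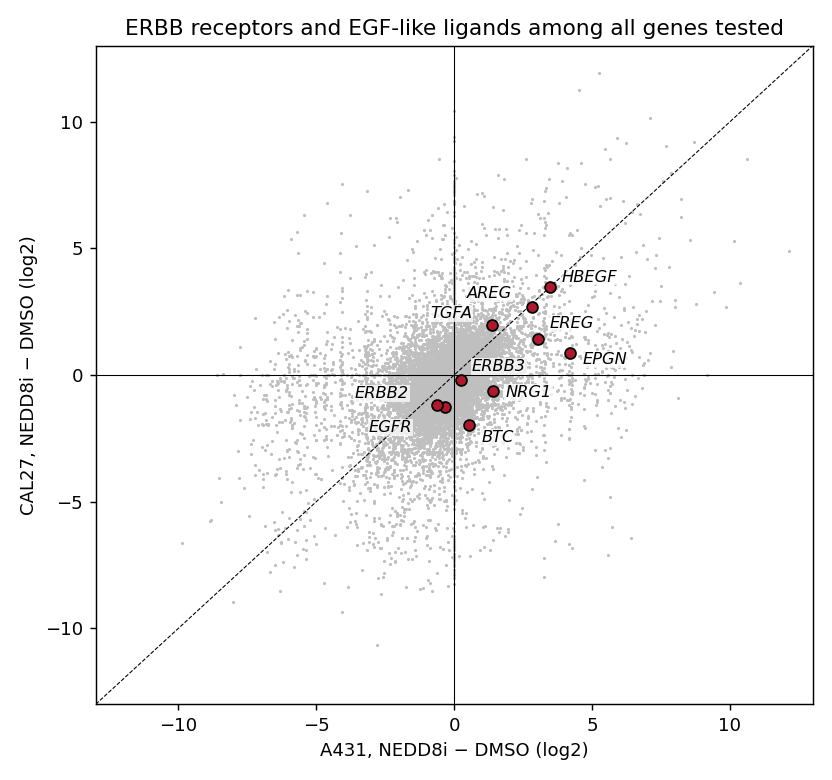
Log2 difference, NEDD8i minus DMSO, of all 18738 genes tested (grey) in A431 (x axis) and CAL27 (y axis), with the receptor and ligand genes in red. The dashed line marks equal responses. HBEGF and AREG lie beside it at the upper right, and NRG1, BTC and EPGN lie to its right.

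In DMSO, the lines differed in all 3 receptors and most in NRG1 and BTC. A431 DMSO had more of each receptor than CAL27 DMSO: EGFR averaged 2861 ± 75.5 CPM in A431 and 1364 ± 18 CPM in CAL27 (SD, n = 2 each), a 2.10-fold difference (log2 1.07 ± 0.04, edgeR adjusted p = 7.85e-14). ERBB2 was 2.56-fold higher in A431 (log2 1.36 ± 0.07) and ERBB3 2.42-fold higher (log2 1.27 ± 0.07), with edgeR adjusted p = 1.15e-11 and 9.06e-11. BTC was 6.97-fold higher in A431 (log2 2.80 ± 0.17, edgeR adjusted p = 1.42e-10). NRG1 was 5.94-fold lower in A431 (log2 -2.57 ± 0.07, edgeR adjusted p = 6.47e-15). HBEGF, TGFA and AREG were lower in A431 by smaller amounts, with log2 differences of -0.45 ± 0.07, -0.34 ± 0.07 and -0.30 ± 0.09 (edgeR adjusted p = 3.86e-05, 0.000246 and 0.00776). The AREG call was lost without A431 DMSO replicate 1 (log2 -0.22, adjusted p = 0.0968) and without CAL27 DMSO replicate 2 (log2 -0.26, adjusted p = 0.0669). EREG and EPGN each had a log2 difference of 0.06 that was not called (edgeR adjusted p = 0.347 and 0.947), with 95% intervals of -0.05 to 0.18 and -1.23 to 1.34. In all, 4 of the 10 were called higher and 4 lower, where 58.9% of all genes tested were called, 29.0% higher and 29.9% lower.

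The other genes of the family were low or silent in one line or both. ERBB4, the remaining receptor, had 28 and 12 counts in A431 NEDD8i libraries against 64 and 29 in A431 DMSO libraries, and 6 and 8 in CAL27 NEDD8i libraries against 1 and 2 in CAL27 DMSO libraries. EGF itself had 2 and 10 counts in A431 NEDD8i libraries against 0 and 6 in A431 DMSO libraries, and 38 and 30 in CAL27 NEDD8i libraries against 56 and 34 in CAL27 DMSO libraries. NRG2 had 12 and 11 counts in A431 NEDD8i libraries against 60 and 38 in A431 DMSO libraries, and 4 and 9 in CAL27 NEDD8i libraries against 6 and 35 in CAL27 DMSO libraries. NRG3 had 0 counts in all 8 libraries. In the shallowest, 3 counts correspond to 0.0656 CPM. Most small counts were even, so counts are not independent and a level above this is also allowed. NRG4 had 990 and 1035 counts in A431 NEDD8i libraries against 1242 and 1084 in A431 DMSO libraries, and 17 and 22 in CAL27 NEDD8i libraries against 12 and 14 in CAL27 DMSO libraries. No response of these genes to NEDD8i passed the test in either line. NRG4 was higher in A431 DMSO than in CAL27 DMSO by 6.60 ± 0.21 on the log2 scale (edgeR adjusted p = 3.15e-14). NRG4 shares 49.1% of its exonic bases with FBXO22 on the other strand. Reads there were not counted, so its level is uncertain.

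EPGN, EREG, AREG and BTC are neighbours on chromosome 4, and of these 4 the 3 that lie close together rose more in A431 than BTC did. EPGN (ENSG00000182585.10, 74308470 to 74316789), EREG (ENSG00000124882.4, 74365145 to 74388749) and AREG (ENSG00000109321.11, 74445136 to 74455005) lie on the plus strand, 48.4 kb and 56.4 kb apart. BTC (ENSG00000174808.12, 74744759 to 74794523) lies on the minus strand, 289.8 kb beyond AREG. The 4 genes span 486 kb, and 2 further identifiers between them had 0 and 4 counts over all libraries. In A431 the log2 differences along the stretch were 4.21, 3.06, 2.81 and 0.53. In CAL27 they were 0.88 (not called), 1.43, 2.70 and -1.99. The order of the values along the chromosome was thus not the same in the lines, and no test was made of position.

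**Figure D4:**
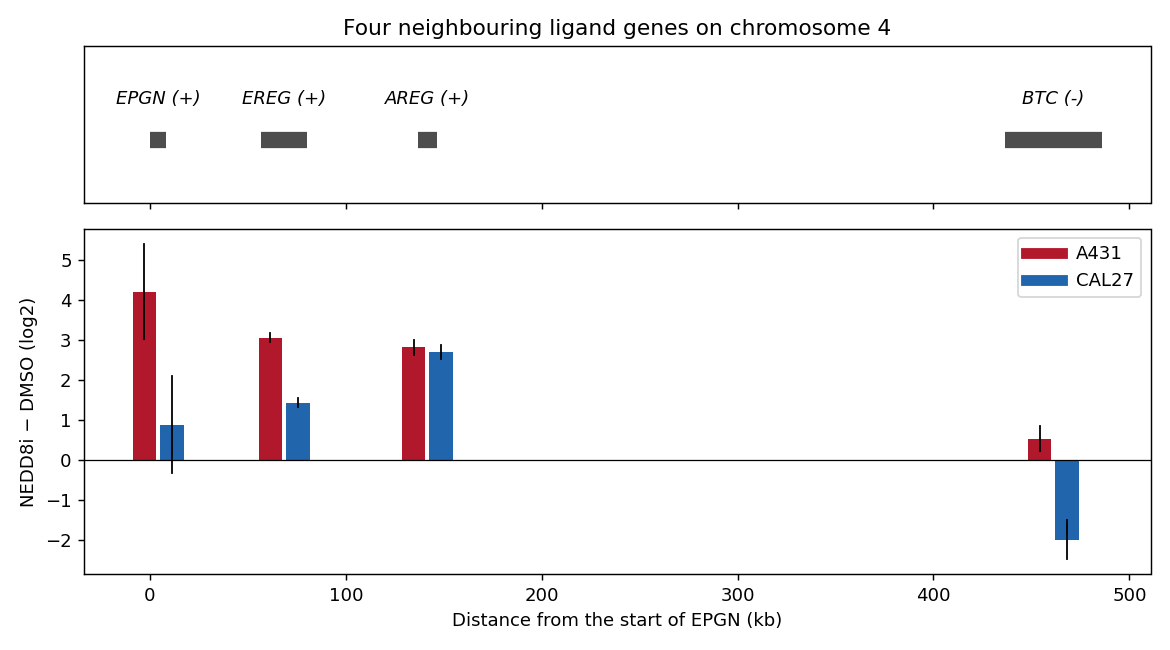
Upper panel, positions of EPGN, EREG, AREG and BTC in kb from the start of EPGN, with their strands. Lower panel, log2 difference (NEDD8i minus DMSO) with its 95% interval at each gene, A431 in red and CAL27 in blue. AREG has bars of like height, at 2.81 and 2.70, and BTC bars of opposite sign, at 0.53 and -1.99.

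Promoter sequences from RefSeq (GRCh38.p14) were found for 8 of the 10 genes, in 10 windows, with no entry for ERBB3 and NRG1. Each window of 250 bases before a transcript start was searched on both strands for 5 motifs: the TATA box TATAAA, the cyclic AMP response element TGACGTCA, the AP-1 site TGANTCA, the antioxidant response element core TGACNNNGC and the GC box GGGCGG. An AP-1 site can overlap an antioxidant response element core. The 150 bases before the start of the 3 neighbouring ligand genes and of HBEGF are shown because these include the largest rises. Position -1 is the last base before the start. Capitals mark matches on the printed strand, of TATAAA and TGACGTCA in the first 3 sequences, at chr4:74308320-74308469, chr4:74364995-74365144 and chr4:74444986-74445135 on the plus strand, and of GGGCGG in HBEGF, at chr5:140346604-140346753 on the minus strand.
EPGN: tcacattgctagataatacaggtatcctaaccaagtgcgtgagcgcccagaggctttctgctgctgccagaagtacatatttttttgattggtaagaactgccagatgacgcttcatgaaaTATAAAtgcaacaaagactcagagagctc
EREG: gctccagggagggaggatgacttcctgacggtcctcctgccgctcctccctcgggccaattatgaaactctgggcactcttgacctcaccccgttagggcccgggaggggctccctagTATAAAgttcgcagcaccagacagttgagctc
AREG: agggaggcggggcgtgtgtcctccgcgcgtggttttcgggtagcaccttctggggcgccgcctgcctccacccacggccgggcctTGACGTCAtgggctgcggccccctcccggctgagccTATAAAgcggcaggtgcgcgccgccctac
HBEGF: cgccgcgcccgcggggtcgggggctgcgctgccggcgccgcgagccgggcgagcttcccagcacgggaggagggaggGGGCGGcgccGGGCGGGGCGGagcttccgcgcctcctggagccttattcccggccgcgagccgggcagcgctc
TATAAA began at -29 in EPGN, -32 in EREG and -29 in AREG, and it also lay in 1 of the 2 EGFR windows. Of all 35116 windows 10.7% held it. TGACGTCA was found in AREG alone of the 10 windows, from -65 to -58, and in 1.65% of all windows. The HBEGF window held GGGCGG at 5 places, of which the 3 nearest the start, at -73, -63 and -58, are printed. Of all windows 42.6% held this motif, as did 4 of the 10. TGANTCA lay in 1 EGFR window and in ERBB2 (6.57% of all windows), and TGACNNNGC in none of the 10 (10.9% of all windows). BTC held none of the 5 motifs. A match is a description of the letters and does not show that a factor binds there.

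Genes that act around the receptors were read from lists of pathway members. The lists were chosen with earlier results of these data known, so their counts are a description and not a test. Their counts stand beside 22.5% of all genes tested called higher and 21.1% lower in A431, and 23.2% higher and 26.4% lower in CAL27. Of 12 genes of ligand shedding, 9 were called higher and 2 lower in A431, with a median log2 difference of 0.34, and 5 higher and 6 lower in CAL27, with a median of -0.17. ADAM17, the main protease that releases HBEGF, AREG, EREG and TGFA, averaged 162 CPM in A431 NEDD8i against 47.6 CPM in A431 DMSO (log2 1.76 ± 0.06, edgeR adjusted p = 1.6e-13). It averaged 124 CPM in CAL27 NEDD8i against 61.7 CPM in CAL27 DMSO (log2 1.01 ± 0.06, edgeR adjusted p = 1.1e-10). ADAM19, another metalloprotease, rose by 1.74 ± 0.13 in A431 and 1.59 ± 0.17 in CAL27, and the rhomboid protease RHBDL2 had log2 differences of -1.30 ± 0.13 and -1.77 ± 0.15. ADAM10, which releases BTC and EGF, had -0.38 ± 0.05 in A431 and -1.01 ± 0.05 in CAL27. RHBDF2, an iRhom that carries ADAM17 to the cell surface, differed between the lines, with 0.73 in A431 and -0.81 in CAL27 (difference 1.53 ± 0.11, edgeR adjusted p = 1.57e-08).

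Of 19 genes that restrain the receptors or turn them over, 12 were called higher and 0 lower in A431 (median 0.43), and 9 higher and 5 lower in CAL27 (median 0.10). Of all genes tested 22.5% were called higher and 21.1% lower in A431, and 23.2% and 26.4% in CAL27. ERRFI1, a feedback inhibitor that binds the EGFR kinase, led in both lines. It averaged 225 CPM in A431 NEDD8i against 31.9 CPM in A431 DMSO (log2 2.82 ± 0.06, edgeR adjusted p = 1.01e-15). It averaged 213 CPM in CAL27 NEDD8i against 66.4 CPM in CAL27 DMSO (log2 1.68 ± 0.06, edgeR adjusted p = 2.32e-13). PTPRJ, a receptor phosphatase, rose by 1.47 ± 0.09 in A431 and 0.53 ± 0.11 in CAL27. CBL, the ubiquitin ligase that sends active EGFR to lysosomes, averaged 63.1 CPM in CAL27 NEDD8i against 31.5 CPM in CAL27 DMSO (edgeR adjusted p = 2.49e-08). In A431 CBL averaged 34.5 CPM under NEDD8i against 23.4 CPM under DMSO (edgeR adjusted p = 4.88e-05). NEDD4, another ubiquitin ligase, rose by 1.04 ± 0.07 in CAL27 and was not called in A431 (0.16 ± 0.07).

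Of 25 adaptors and kinases downstream, 24 were tested, with 11 called higher and 3 lower in A431 (median 0.08) and 10 higher and 7 lower in CAL27 (median 0.13). Of all genes tested 43.6% were called in A431 and 49.6% in CAL27. GAB2, a docking protein, averaged 27.4 CPM in CAL27 NEDD8i against 3.99 CPM in CAL27 DMSO (log2 2.78 ± 0.18, edgeR adjusted p = 5.67e-10). In A431 it had 59 counts under NEDD8i against 2 under DMSO, each summed over 2 libraries (log2 4.84 ± 0.60, edgeR adjusted p = 3.57e-06). Both DMSO counts came from A431 DMSO replicate 1. The A431 DMSO mean of 0.0174 CPM was below the level of 3 counts in either library (0.0521 and 0.0582 CPM), so the size of this rise is uncertain. The ratio of CPM was 32, with a 95% counting interval of 8.47 to 270.2. That interval is too narrow, since it takes counts as independent and leaves out the spread between libraries. MAP2K1, the kinase MEK1, rose by 0.69 ± 0.05 in A431 and 1.27 ± 0.05 in CAL27. AKT1 had -1.16 ± 0.07 in CAL27 and was not called in A431 (0.10 ± 0.07). Of 16 genes known to follow ERK activity, 14 were called higher and 2 lower (EGR1 and CCND1) in A431, with a median of 1.72, and 9 higher and 3 lower (EGR1, MYC and CCND1) in CAL27, with a median of 1.03. The shares of all genes called higher and lower were 22.5% and 21.1% in A431, and 23.2% and 26.4% in CAL27. SPRY4, an inhibitor of receptor signalling, rose by 3.24 ± 0.14 in A431 and 3.47 ± 0.16 in CAL27, and the AP-1 gene FOSL1 by 3.22 ± 0.09 and 3.02 ± 0.09. Over all genes tested the medians were -0.01 in A431 and -0.04 in CAL27. No list was tested as a whole, and the lists were chosen with earlier results of these data known. Fibroblast markers and CD14 also had lower sums under NEDD8i in both lines, though of 5 fibroblast markers tested only 2 were called lower in each. The endothelial sum was lower under NEDD8i in A431 and higher in CAL27.

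**Figure D5:**
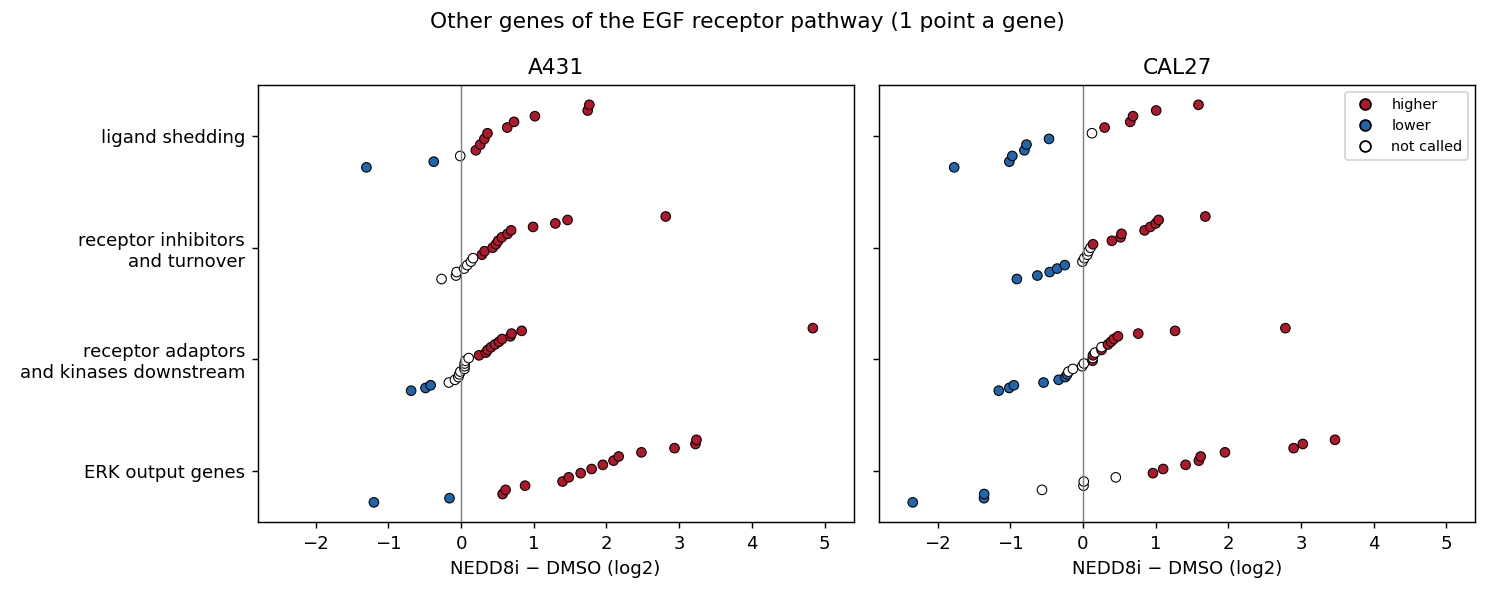
Log2 difference (NEDD8i minus DMSO) of every tested gene in 4 lists, A431 on the left and CAL27 on the right, 1 point a gene, sorted within its list. Red points were called higher, blue points lower and open points not. In A431 no gene of the receptor inhibitors and turnover list was called lower, and in CAL27 5 were.

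The genes whose pattern over the 4 groups was most like that of EGFR or HBEGF were found by the Euclidean distance between centred group means of log2 CPM, over genes with at least 1 CPM on average. For EGFR they were PPP1R12B (distance 0.11), TMOD2 (0.11) and DGAT2 (0.12), all highest in A431 DMSO and lowest in CAL27 NEDD8i. For HBEGF they were PLAUR, the urokinase receptor (0.33), TXNRD1, thioredoxin reductase (0.43), and OSGIN1 (0.48). These 3 were high in both NEDD8i groups and low in both DMSO groups. The likeness to EGFR and to HBEGF follows from how the genes were picked and is not a separate result.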

How the data were processed

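The authors deposited whole read counts for each gene, in a separate table for every library. STAR and GRCh38 are named in the submitters' processing notes, with no STAR version in the sources used. Counting, per the file headers, was by featureCounts 2.0.8 on alignments filtered in a step not described, over exons of the basic GENCODE 39 annotation, without strand, and each mate of a pair counted once. Of counts from 1 to 40, 70.2% to 76.7% were even, so counts are not independent molecules. The counting interval and the floor of 3 counts take counts as independent and allow for counting error only. The interval is therefore too narrow and the floor too low. Reads over more than 1 gene were dropped. Per the labels' protocols, the kit was QuantSeq FWD, which reads 3' ends, so isoforms were not told apart and levels were not compared between genes.

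Of 61533 identifiers, 61369 matched a symbol. CPM were computed here from the deposited counts. Tests used edgeR 4.0.16 in R 4.3.3 (TMM, filterByExpr, glmQLFit) on 4 group means, with 4 residual degrees of freedom. The fit adds prior degrees of freedom, with a median of 12.3, from the spread of all genes. The p-values and 95% intervals thus rest largely on spread shared across genes. The standard error (±) of a log2 difference was taken as its size over the root of F. Exon overlap used GenomicRanges 1.54.1. DESeq2 1.42.0 was an alternative. Genes were named by rule: all 10 members, the other 5 family genes, up to 4 called genes a list by size of change, the 3 nearest patterns for EGFR and for HBEGF. EGR1 in A431, CCND1 and MYC fall outside it and were named after their values were seen. The members and lists were chosen with earlier results of these data known.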

Additional observations from a re-analysis of the deposited data

Results flagged for a closer look

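The response to NEDD8i differed between the lines, by the test of the A431 response minus the CAL27 response (log2, edgeR adjusted p under 0.05), in 8 of the 10 genes. The difference was 0.90 for EGFR, 0.59 for ERBB2 and 0.46 for ERBB3. It was 3.33 for EPGN, 2.52 for BTC, 2.04 for NRG1 and 1.63 for EREG. For TGFA it was -0.60. Of all genes tested 34.0% passed the same test. ERBB3, BTC and NRG1 were called higher in A431 and lower in CAL27. Both ERBB3 calls and the A431 call of BTC were lost under some alternatives, while both NRG1 calls held. EGFR and ERBB2 were called lower in both lines and EREG and TGFA higher in both, to different extents.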

How the results depend on the processing

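In each comparison 16 or 17 alternatives were tried: other scalings, filters, DESeq2, the replicate number as a block, the contrast's own 4 libraries, halved counts, and each library left out. Members called ranged from 7 to 8 higher in A431, stayed at 2 lower in A431 and 4 higher in CAL27, and ranged from 4 to 5 lower in CAL27. The 7 higher and 1 lower differences between responses were called under all 16. The replicate numbers share no stated source, and deviations of same-numbered libraries correlated at -0.0303 to 0.0194. With the block, 4142 genes were higher and 3810 lower in A431 (4224 and 3951 without), and 4260 and 4826 in CAL27 (4348 and 4943). It changed no member's call, but turned the EPGN difference between lines in DMSO to -0.062.

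Calls of single genes were also lost for ERBB3 in A431 with library size alone (0.15, adjusted p = 0.105), ERBB3 in CAL27 with RLE factors (-0.18, adjusted p = 0.0567), DESeq2 (-0.18, 0.0625) or 4 libraries (-0.18, 0.0543), and AREG in DMSO with 4 libraries (-0.30, 0.054). The cause was not tested. Values that changed sign were never called. The HBEGF difference between responses was -0.025 with RLE factors and with DESeq2 (-0.0247), -0.063 with upper quartile factors, -0.0092 with library size alone and -0.0079 with at least 1 CPM in 2 libraries, and -0.067 to 0.063 with a library left out. In DMSO, library size alone gave -0.016 for EREG and -0.0204 for EPGN, and leaving out a library gave -1.51 to 0.77 for EPGN. With library size alone the median over all genes was -0.11 in A431, against -0.01. EPGN had 22 and 4 counts in the A431 DMSO libraries, and what sets this spread was not tested.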
